A study of Homo sapiens with 6 samples.

Results

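The 35 genes described here serve glycolysis and the cell's response to low oxygen. They are a glucose transporter and the enzymes that take glucose to pyruvate, the genes that handle pyruvate and lactate, the PFKFB enzymes, the subunits and prolyl hydroxylases of the hypoxia-inducible factors (HIF), and HIF target genes outside glycolysis. They were chosen by name, from the symbols that GENCODE gives to the Ensembl gene IDs of the count tables. All 35 were found, of 60671 genes in the tables.

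K562, a human chronic myeloid leukemia line, was used as 1 clone that carries Flag-NLS-M.CviPI-Lamin-B1, a nuclear-lamina protein fused to a GpC methyltransferase and switched on by doxycycline. The DMSO group received 0.1% v/v DMSO for 72 hours and the EZH2i group received 1 µM GSK343, an inhibitor of the histone methyltransferase EZH2, for 72 hours. Both groups also received 1 µg/mL doxycycline for the last 24 hours, so no library shows the cells without the induced fusion protein. Each group had 3 cultures. The comparison of EZH2i with DMSO asks how the level of each gene differed after EZH2 inhibition. Since all cultures come from 1 clone, the spread between them does not include differences between clones.

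The RNA was read as 3' tags, with 1 read near the 3' end of an mRNA, and each library held from 6327544 to 8987768 reads on genes. Levels are given as CPM, which scales each count to the same total of reads on genes, after TMM scaling of the libraries. A count of 3 reads was worth from 0.340 to 0.469 CPM, depending on the library. All 11 markers of K562 cells had reads, with a summed level of 1390 ± 30.0 CPM (SD, n = 3) in DMSO and 1504 ± 29.5 CPM (n = 3) in EZH2i, and 2 of the 10 tested were higher in EZH2i, against 3.34% of all tested genes. These were the hemoglobin genes HBZ, with means of 71.55 and 158.9 CPM, and HBG2, with 94.25 and 140.3 CPM, while the median log2 fold change of the 10 was 0.0002. Of 10 markers of other cell types, 9 had reads and MS4A1, a B-cell marker, was at 0. Their summed level ran from 99.18 to 101.6 CPM in DMSO and from 90.24 to 93.73 CPM in EZH2i, and 1 of the 4 tested, COL1A1, was higher. Most of this sum was EPCAM, an epithelial adhesion gene, with means of 77.5 CPM in DMSO and 63.9 CPM in EZH2i (edgeR adjusted p = 0.156). The part of these markers in the results below was not tested. In bulk RNA, fewer cells of a kind and less RNA per cell cannot be told apart.

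Glycolysis splits glucose into pyruvate and yields ATP without oxygen, and lactate dehydrogenase then turns pyruvate into lactate so that the pathway can go on. When oxygen is present, EGLN prolyl hydroxylases mark the HIF alpha subunits for destruction. When oxygen is scarce, the alpha subunits pair with ARNT and raise the transcription of glycolytic genes, VEGFA and others. Much of this control acts on the HIF proteins, which were not measured here. EZH2 places the repressive mark H3K27me3 on histones.

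Of the 35 genes, 29 had enough reads to be tested with edgeR's quasi-likelihood test, and 2 of them were higher in EZH2i at a Benjamini-Hochberg adjusted p under 0.05. These were PKM, which makes the last enzyme of glycolysis, and EPAS1, which makes the HIF-2 alpha subunit. None was lower with edgeR, against 1 gene, LDHA, that was lower at an unadjusted p under 0.05, and DESeq2 also called none of them lower. The 2 genes are 6.9% of those tested, while over all 12364 genes tested the test called 4.26% in either direction, 3.34% as higher and 0.922% as lower. DESeq2 called PKM alone of the 35. Of the 14394 genes left after its independent filtering it called 3.02%, with 2.03% higher and 0.993% lower. The edgeR counts depended on single libraries. Without DMSO replicate 1, 2 or 3, edgeR called 213, 209 or 240 genes in place of 527, and 0, 1 or 1 of the 35. Without EZH2i replicate 2 or 3 it called 1 of the 35. The groups did not overlap for 7 of the 29 genes, or 24.1%, against 24.5% of all genes tested. An unadjusted p under 0.05 was found for 6 of the 29, or 20.7%, against 19.1% of all genes.

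Most fold changes of the 29 genes lay near 0. The median log2 fold change of the 29 genes, EZH2i over DMSO, was 0.05, and that of all tested genes was -0.0002. With 1 library left out at a time the median of the 29 ran from 0.0047 (without EZH2i replicate 1) to 0.0857 (without EZH2i replicate 3). It was above 0 for 17 of them and below 0 for 12, and its size was under 0.2 for 17. For 19 of the 27 genes that did not pass the test, the 95% interval of the change lay within a 1.5-fold change either way. For 24 of the 27 it lay within a 2-fold change, and the 3 others were SLC16A3, EGLN3 and NDRG1.

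**Figure D1:**
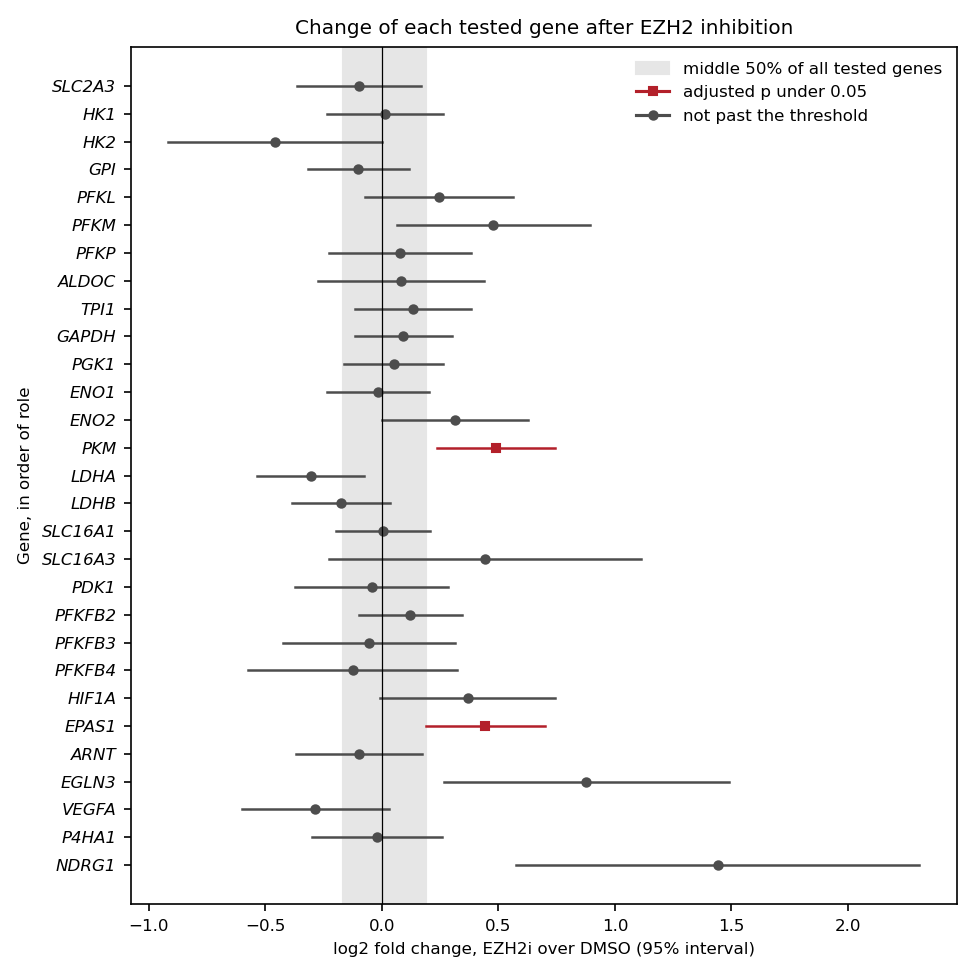
Log2 fold change of each of the 29 tested genes, EZH2i over DMSO (x axis, with 95% interval), in the order of their roles (y axis). PKM and EPAS1 (red squares) passed the test, and most other points lie in or near the grey band, which holds the middle 50% of all tested genes, from -0.17 to 0.19.

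Promoters are shown for the 2 genes that passed the test and for EGLN3 and LDHA, a gene of the oxygen-sensing arm and a classical HIF target of glycolysis whose groups also did not overlap. PFKM, ENO2 and LDHB had groups that did not overlap either, and their promoters are not shown. HIF binds DNA at hypoxia response elements whose core is ACGTG or GCGTG, and each core was searched on both strands. The palindrome CACGTG holds ACGTG on both strands and counts on each. The sequences come from RefSeq on GRCh38.p14 and are the 250 bases before an annotated start, 5′ to 3′ on the strand of the gene, with cores in capitals. They are PKM at chr15:72231191-72231440 (minus strand), EPAS1 at chr2:46297157-46297406 (plus strand), EGLN3 at chr14:33951075-33951324 (minus strand) and LDHA at chr11:18394313-18394562 (plus strand).
PKM: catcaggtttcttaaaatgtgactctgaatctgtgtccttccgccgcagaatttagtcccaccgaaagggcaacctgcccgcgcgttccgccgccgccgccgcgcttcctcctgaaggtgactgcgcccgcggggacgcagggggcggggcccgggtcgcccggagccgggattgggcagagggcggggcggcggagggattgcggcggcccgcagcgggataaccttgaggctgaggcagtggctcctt
EPAS1: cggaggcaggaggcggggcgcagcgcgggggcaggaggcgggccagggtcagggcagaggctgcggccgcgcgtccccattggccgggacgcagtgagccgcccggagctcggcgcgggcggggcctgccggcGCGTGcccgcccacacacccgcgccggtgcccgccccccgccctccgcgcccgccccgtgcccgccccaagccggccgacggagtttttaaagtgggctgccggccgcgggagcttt
EGLN3: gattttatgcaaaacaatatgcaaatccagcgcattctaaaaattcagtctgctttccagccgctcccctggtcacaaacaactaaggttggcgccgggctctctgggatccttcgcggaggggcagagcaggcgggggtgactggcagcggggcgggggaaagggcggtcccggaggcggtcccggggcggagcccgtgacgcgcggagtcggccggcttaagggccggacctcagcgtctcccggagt
LDHA: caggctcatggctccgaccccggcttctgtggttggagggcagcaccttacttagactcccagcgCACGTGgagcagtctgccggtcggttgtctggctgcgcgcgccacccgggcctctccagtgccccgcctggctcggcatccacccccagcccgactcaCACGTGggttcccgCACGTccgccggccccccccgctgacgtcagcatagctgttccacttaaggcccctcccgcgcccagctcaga

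The PKM and EGLN3 windows held 0 cores, the EPAS1 window held 1 and the LDHA window printed above held 5. LDHA has another annotated start, whose window (chr11:18396101-18396350) held 1. RefSeq windows were at hand for 30 of the 35 genes, the others being NDRG1, PFKFB2, SLC16A1, SLC2A3 and VEGFA. A core was found in 33 of the 57 windows of these 30 genes, or 57.9%, against 43.2% of all 35116 windows and 56.5% of the windows of tested genes. Genes differ in their number of windows, with 7 each for HK1 and PFKM. Counted by gene, 25 of the 30, or 83.3%, had a core in at least 1 window, against 47.4% of all genes and 66.1% of tested genes. A gene with more windows can have a match more easily, and the tested genes had 13378 windows for 9307 genes. The 30 genes also include some that were not tested. The counts by gene are therefore not on equal terms. ACGTG stood in 36.8% of the 57 windows and in 22.7% of those of tested genes, and GCGTG in 31.6% and 44.9%. A match only says that these letters stand in the window, and bases outside the windows were not searched.

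GAPDH and ENO1, which make the dehydrogenase of the middle of glycolysis and the main enolase, had the highest levels of the 35, with means over the 6 libraries of 1788 CPM and 1486 CPM. LDHB, which makes the heart-type lactate dehydrogenase subunit, followed at 486 CPM. The same 3 genes led when CPM was divided by exonic length, at 746, 285 and 163 CPM per kb, although 3' tags do not grow in number with transcript length. In all, 11 of the 35 genes had a mean over 100 CPM and 4 had a mean under 1 CPM. The 35 genes took from 0.577% to 0.681% of the reads of a library.

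**Figure D2:**
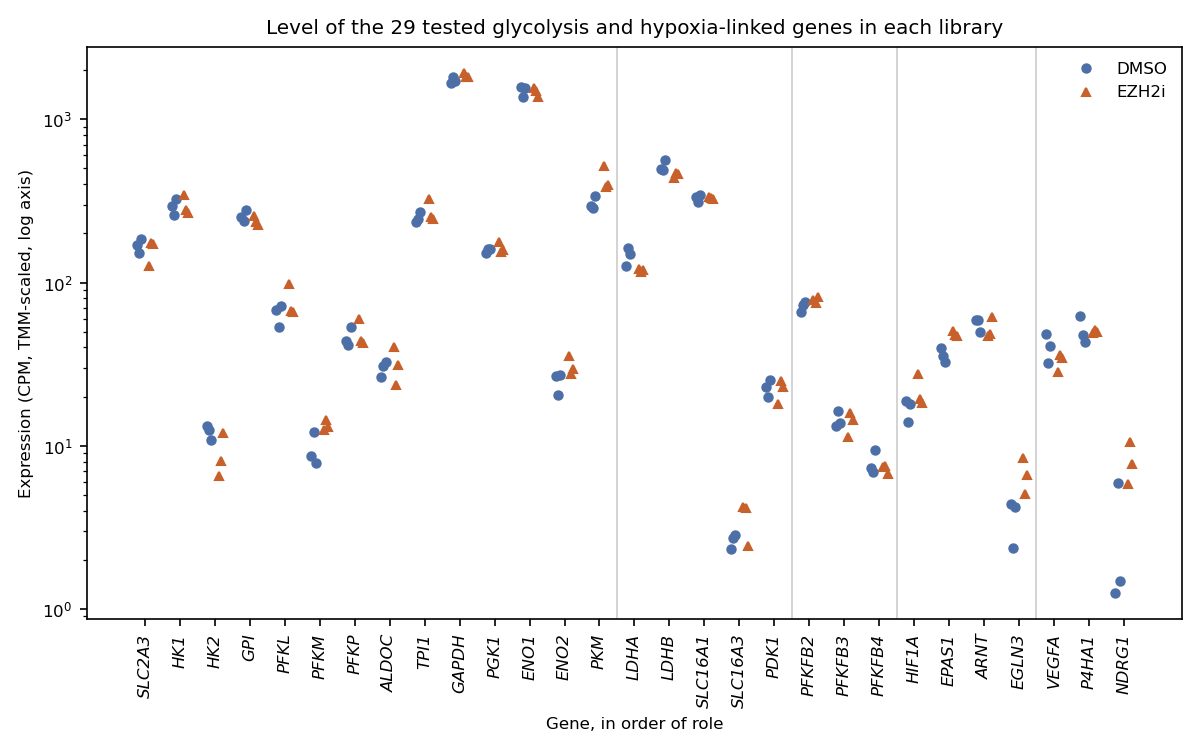
Level of each tested gene in each library (y axis, CPM after TMM scaling, log scale), DMSO as circles and EZH2i as triangles, with genes in the order of their roles and grey lines between the 5 groups. GAPDH and ENO1 stand above all other plotted genes in all 6 libraries, and the groups sit close together for most genes.

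PKM encodes pyruvate kinase, which makes pyruvate and ATP from phosphoenolpyruvate (ENSG00000067225, chromosome 15, 72199029 to 72231819 on GRCh38, minus strand). Its level was 294.6, 286 and 340.5 CPM in DMSO replicates 1, 2 and 3, and 513.8, 384.8 and 396.2 CPM in EZH2i replicates 1, 2 and 3. Every EZH2i library was above every DMSO library, and EZH2i replicate 1 stood well above the other two. The means were 307 ± 29.3 CPM in DMSO and 432 ± 71.4 CPM in EZH2i (SD, n = 3 each). The fold change was 1.41, or 0.49 ± 0.12 on the log2 scale (SE), with an edgeR adjusted p of 0.0291 by Benjamini-Hochberg. Without EZH2i replicate 1 the log2 fold change was 0.35 and the edgeR adjusted p 0.0446, and the call was lost without DMSO replicate 1 (adjusted p = 0.124) or DMSO replicate 2 (0.133), the latter being the highest value over all alternatives, which began at 0.00163. Reads counted near the 3' end do not tell the PKM1 and PKM2 splice forms apart.

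None of the genes tested for the steps before PKM passed the test, and ALDOA and PGAM1 had too few reads to be tested. The transporter and enzyme group had 16 genes, of which 14 were tested, with a median log2 fold change of 0.08. Of the 14, 1, PKM, rose, or 7.14%, against 3.34% of all tested genes called higher. None was lower, against 0.922% of all tested genes. The summed level of the 16 genes was 4831, 4687 and 5023 CPM in the DMSO replicates and 5478, 4970 and 4836 CPM in the EZH2i replicates. The groups overlapped, and EZH2i replicate 1 was the highest of the 6.

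SLC2A3, a glucose transporter of high affinity, had 169.7, 151 and 185.8 CPM in DMSO and 126.5, 175.1 and 171 CPM in EZH2i. HK1, the hexokinase that traps glucose in most cells, had 295.1, 261 and 325.1 CPM in DMSO and 344.8, 277.5 and 266.4 CPM in EZH2i. The groups of both genes overlapped, with log2 fold changes of -0.10 and 0.01. HK2, the hexokinase that HIF can induce, had 13.14, 12.47 and 10.89 CPM in DMSO and 6.501, 8.07 and 12.03 CPM in EZH2i. EZH2i replicates 1 and 2 were under all DMSO libraries but replicate 3 was not, and the log2 fold change was -0.46 ± 0.22 (SE, edgeR adjusted p = 0.263). For HK2 it was -0.28 without EZH2i replicate 1 and -0.73 without EZH2i replicate 3.

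GPI, which turns glucose 6-phosphate into fructose 6-phosphate, ran from 237.5 to 279.6 CPM in DMSO and from 225.6 to 255.2 CPM in EZH2i. Phosphofructokinase, the committed step of glycolysis, has 3 genes. PFKL, the liver form, had 68.19, 53.67 and 72.28 CPM in DMSO and 97.52, 66.58 and 65.74 CPM in EZH2i, so that EZH2i replicate 1 alone lay above the DMSO libraries. PFKP, the platelet form, had 44.1, 41.32 and 53.11 CPM in DMSO and 60.14, 43.76 and 42.4 CPM in EZH2i, with the same library on top. PFKM, the muscle form, had 8.602, 12.11 and 7.83 CPM in DMSO and 12.46, 14.38 and 13.03 CPM in EZH2i. All its EZH2i libraries were above the DMSO libraries, by little over DMSO replicate 2, and the log2 fold change was 0.48 ± 0.20 (SE, edgeR adjusted p = 0.183).

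ALDOC, an aldolase, ran from 26.27 to 32.57 CPM in DMSO and from 23.45 to 40.5 CPM in EZH2i. TPI1, triosephosphate isomerase, had 236.3, 243.6 and 269.1 CPM in DMSO and 326.8, 251.4 and 243.5 CPM in EZH2i, again with EZH2i replicate 1 on top and the other two among the DMSO values. GAPDH, often used as a reference gene, had 1671, 1810 and 1712 CPM in DMSO and 1921, 1809 and 1804 CPM in EZH2i. Its groups overlapped, and its log2 fold change was 0.09 with a 95% interval from -0.12 to 0.30. PGK1, phosphoglycerate kinase, ran from 152.2 to 161.5 CPM in DMSO and from 154.5 to 177.6 CPM in EZH2i.

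ENO1 had 1572, 1365 and 1546 CPM in DMSO and 1560, 1498 and 1375 CPM in EZH2i, which overlap almost fully. ENO2, the neuronal enolase, had 26.9, 20.54 and 27.01 CPM in DMSO and 35.35, 27.62 and 29.36 CPM in EZH2i. Its groups did not overlap, but the gap between them was narrow, and its log2 fold change was 0.31 ± 0.15 (SE, edgeR adjusted p = 0.262). Leaving out DMSO replicate 2 gave 0.19 for ENO2, and leaving out EZH2i replicate 1 gave 0.20.

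EZH2i replicate 1 stood out across glycolysis. It was the highest of the 6 libraries for 9 of the 14 tested genes of the group, or 64.3%, and for 23.9% of all tested genes. It was also the lowest for 2 of the 14 and for 24.3% of all tested genes. Over the whole table it was the most frequent extreme in both directions. Its level was above the mean of the other 5 libraries by a median of 0.23 on the log2 scale in the group and 0.02 over all tested genes. DMSO replicate 2 was the lowest library for 6 of the 14, or 42.9%, against 17.4% of all genes. Without EZH2i replicate 1, the median log2 fold change of the group was -0.01 in place of 0.08.

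**Figure D3:**
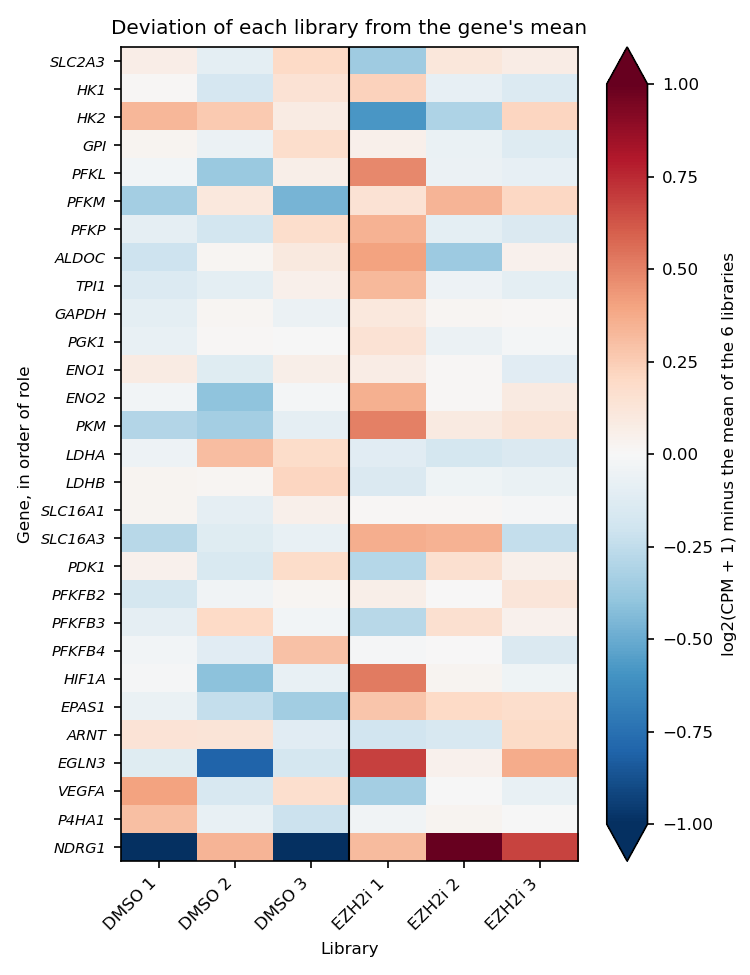
Level of each tested gene (y axis) in each library (x axis), as log2(CPM + 1) minus the mean over the 6 libraries, red above and blue below. EZH2i replicate 1 is red for most glycolytic enzymes, from PFKL to PKM, while NDRG1 differs strongly between DMSO replicate 2 and the other DMSO libraries.

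The 2 genes of the group left out of the test, ALDOA and PGAM1, had almost no reads. ALDOA, the main aldolase of most cells, had 2, 0 and 2 reads in DMSO and 0, 0 and 1 in EZH2i. PGAM1, the phosphoglycerate mutase of most tissues, had 13, 10 and 8 reads in DMSO and 1, 7 and 11 in EZH2i. Both have 3' ends where reads can be lost in counting. All of the last 300 exonic bases of ALDOA lie in ENSG00000285043, another gene on the same strand that had 0 reads, and HTSeq by default leaves out reads that fall in more than 1 gene. Of the 50-base windows in the same stretch of PGAM1, 250 of 251, or 99.6%, occur at more than 1 exact place in the genome. PGAM1 pseudogenes held 74 reads over the 6 libraries, and PGAM1 itself 50.

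Among the other members, EGLN1 was the only one with over 50% of this stretch in a gene on the same strand or with windows at more than 1 place. Its last 300 bases lay to 86.3% in ENSG00000287856, which had 0 reads. Windows at more than 1 place made up 44.6% for PGK1, 31.1% for HK2 and GAPDH and 21.9% for TPI1, and 34.3% of the LDHB stretch lay in another gene. For 21 of the 35 genes there was neither. On the other strand, a gene covered 92.0% of the SLC16A3 stretch and 82.7% of those of GAPDH and ALDOC, and the strand setting of the counting is not given in the sources used here. How far these features lowered each count was not tested.

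**Figure D4:**
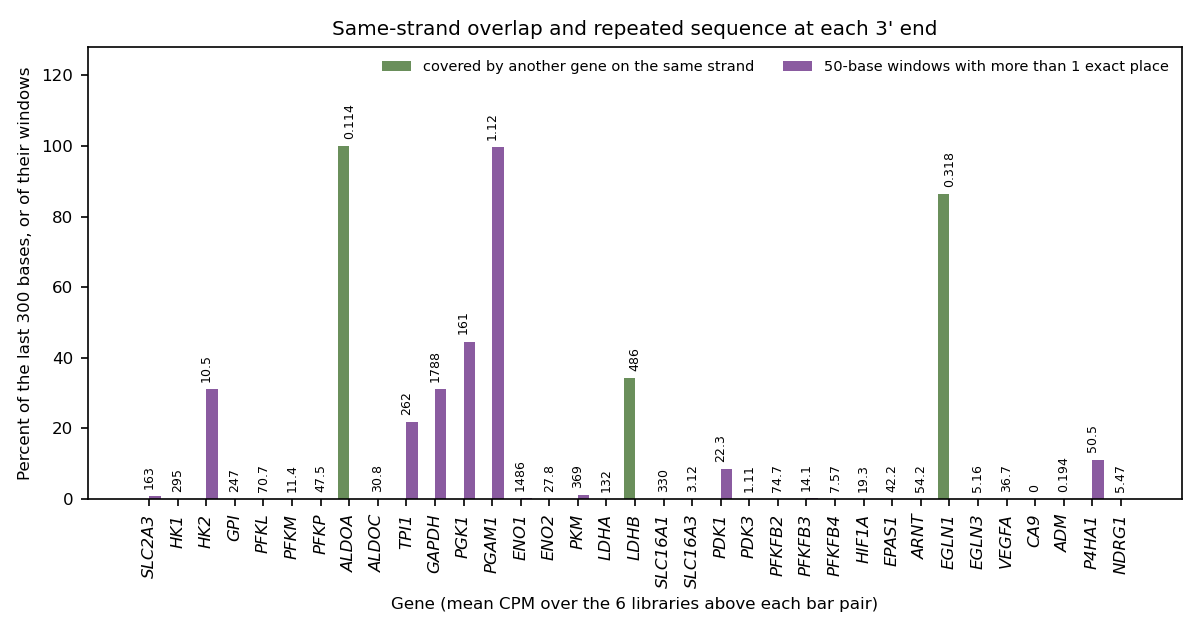
Share of the last 300 exonic bases of each gene that lies in another gene on the same strand (green) and share of its 50-base windows with more than 1 exact place in the genome (purple), both in percent, with the mean CPM over the 6 libraries printed above. ALDOA, PGAM1 and EGLN1 have the tallest bars, at 86.3% or more, and levels of 1.12 CPM or less.

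The genes that handle pyruvate and lactate had a lower summed level in EZH2i, and none of the 5 tested passed the test. Their median log2 fold change was -0.04, and from -0.15 to 0.04 with 1 library left out at a time. The summed level of the 6 genes was 1017 ± 55.8 CPM in DMSO and 932 ± 17.3 CPM in EZH2i (SD, n = 3 each). The 3 EZH2i sums, from 914.4 to 948.9 CPM, lay under the 3 DMSO sums, from 982.6 to 1081 CPM. LDHB and LDHA had most of this difference.

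LDHA encodes the muscle-type lactate dehydrogenase subunit, which favours the making of lactate (ENSG00000134333, chromosome 11, 18394560 to 18408425 on GRCh38, plus strand). Its level was 126.8, 162.5 and 149.6 CPM in DMSO and 121, 115.9 and 118.6 CPM in EZH2i. All EZH2i libraries were under all DMSO libraries, and the EZH2i libraries lay close together. The log2 fold change was -0.31 ± 0.11 (SE), with a 95% interval from -0.54 to -0.08 and an edgeR adjusted p of 0.123 by Benjamini-Hochberg. LDHB had 494.7, 489.9 and 561.9 CPM in DMSO and 437.6, 470.8 and 461.6 CPM in EZH2i. Its groups did not overlap either, with a log2 fold change of -0.17 ± 0.10 (SE, edgeR adjusted p = 0.353) that was -0.11 when DMSO replicate 3 was left out.

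SLC16A1, which encodes the lactate transporter MCT1, had 335, 310.2 and 341.5 CPM in DMSO and 331.8, 331.6 and 327 CPM in EZH2i. This was one of the narrowest comparisons, with a 95% interval of the log2 fold change from -0.20 to 0.21. SLC16A3, which encodes the lactate exporter MCT4, had 2.346, 2.731 and 2.837 CPM in DMSO and 4.199, 4.161 and 2.435 CPM in EZH2i. EZH2i replicates 1 and 2 were above the DMSO libraries and replicate 3 was among them. Its 95% interval, from -0.23 to 1.11, covers both a small decrease and a 2-fold increase.

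PDK1 encodes a kinase that blocks pyruvate dehydrogenase and so keeps pyruvate from becoming acetyl-CoA for the TCA cycle. It ran from 19.83 to 25.19 CPM in DMSO and from 18.01 to 24.84 CPM in EZH2i. PDK3, a kinase of the same family, had 6, 9 and 1 reads in DMSO and 13, 12 and 9 in EZH2i, too few to be tested. In CPM these were 0.938, 1.07 and 0.114 against 1.76, 1.51 and 1.29, and the groups did not overlap.

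The PFKFB enzymes set the level of fructose 2,6-bisphosphate, the strongest activator of phosphofructokinase. All 3 were tested and none passed. PFKFB2 had the highest level, with 66, 72.66 and 75.69 CPM in DMSO and 77.61, 74.78 and 81.21 CPM in EZH2i. PFKFB3, a known HIF target, ran from 13.14 to 16.27 CPM in DMSO and from 11.38 to 15.76 CPM in EZH2i. PFKFB4 ran from 6.886 to 9.419 CPM in DMSO and from 6.732 to 7.566 CPM in EZH2i. The groups of all 3 genes overlapped.

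Of the HIF subunits and prolyl hydroxylases, 4 of 5 were tested, with a median log2 fold change of 0.41. Among these 4, 1 rose, against 3.34% of all tested genes called higher, and none was lower. EPAS1 encodes HIF-2 alpha, an oxygen-regulated subunit known for its part in the control of erythropoietin (ENSG00000116016, chromosome 2, 46293667 to 46386697 on GRCh38, plus strand). Its level was 39.72, 35.26 and 32.45 CPM in DMSO and 50.66, 47.92 and 47.27 CPM in EZH2i. The groups did not overlap, and the EZH2i libraries differed little among themselves. The means were 35.8 ± 3.67 CPM and 48.6 ± 1.80 CPM (SD, n = 3 each). The fold change was 1.36, or 0.44 ± 0.12 on the log2 scale (SE), with an edgeR adjusted p of 0.0448 by Benjamini-Hochberg. This call lay close to the threshold: it was lost when any 1 library was left out (edgeR adjusted p from 0.0577 to 0.158) and with DESeq2 (adjusted p = 0.0812). Over all alternatives its adjusted p ran from 0.0356 to 0.158.

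HIF1A encodes the HIF-1 alpha subunit, which drives glycolytic genes in low oxygen. It had 18.77, 14.01 and 17.93 CPM in DMSO and 27.63, 19.29 and 18.33 CPM in EZH2i. The groups overlapped, with EZH2i replicate 1 far above the rest, and the log2 fold change was 0.37 ± 0.18 (SE, edgeR adjusted p = 0.270). Without that library it was 0.16. ARNT, the partner of both alpha subunits, ran from 49.82 to 59.27 CPM in DMSO and from 47.14 to 61.73 CPM in EZH2i.

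EGLN3 encodes a prolyl hydroxylase that HIF itself induces (ENSG00000129521, chromosome 14, 33924227 to 34462774 on GRCh38, minus strand). Its level was 4.379, 2.375 and 4.199 CPM in DMSO and 8.398, 5.044 and 6.589 CPM in EZH2i. The groups did not overlap, though the lowest EZH2i library was close to the highest DMSO library. The log2 fold change was 0.88 ± 0.29 (SE), with a 95% interval from 0.27 to 1.49 and an edgeR adjusted p of 0.0992 by Benjamini-Hochberg. EGLN1, the main oxygen sensor of most cells, had 4, 2 and 2 reads in DMSO and 1, 2 and 3 in EZH2i, and its 3' end is one of the 3 with the most overlap or repeated sequence.

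Of the 5 HIF targets outside glycolysis, 3 were tested and none passed. VEGFA, the growth factor of blood vessels, had 48.17, 32.29 and 40.74 CPM in DMSO and 28.44, 36.19 and 34.38 CPM in EZH2i. The groups overlapped, and the log2 fold change was -0.29 ± 0.15 (SE, edgeR adjusted p = 0.310). Leaving out DMSO replicate 1 gave -0.15, and leaving out EZH2i replicate 1 gave -0.18. P4HA1, a collagen prolyl hydroxylase, had 62.24, 47.73 and 43.01 CPM in DMSO and 49.03, 51.07 and 49.99 CPM in EZH2i, with a log2 fold change of -0.02. CA9, the carbonic anhydrase that is a common marker of hypoxic cells, had 0 reads in all 6 libraries. ADM, which encodes the peptide adrenomedullin, had from 0 to 3 reads.

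NDRG1, a stress-response gene that low oxygen induces in many cells, had the largest fold change of the 29 tested genes. Its level was 1.251, 5.936 and 1.475 CPM in DMSO and 5.824, 10.59 and 7.734 CPM in EZH2i. DMSO replicate 2 was about as high as EZH2i replicate 1, so the groups overlapped, while the other two DMSO libraries were well under all EZH2i libraries. The log2 fold change was 1.44 ± 0.41 (SE), with a 95% interval from 0.57 to 2.31 and an edgeR adjusted p of 0.0565 by Benjamini-Hochberg. Without DMSO replicate 2, the log2 fold change was 2.54 and the edgeR adjusted p 0.00406, and over all alternatives the adjusted p ran from 2.53e-05 to 0.210.

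**Figure D5:**
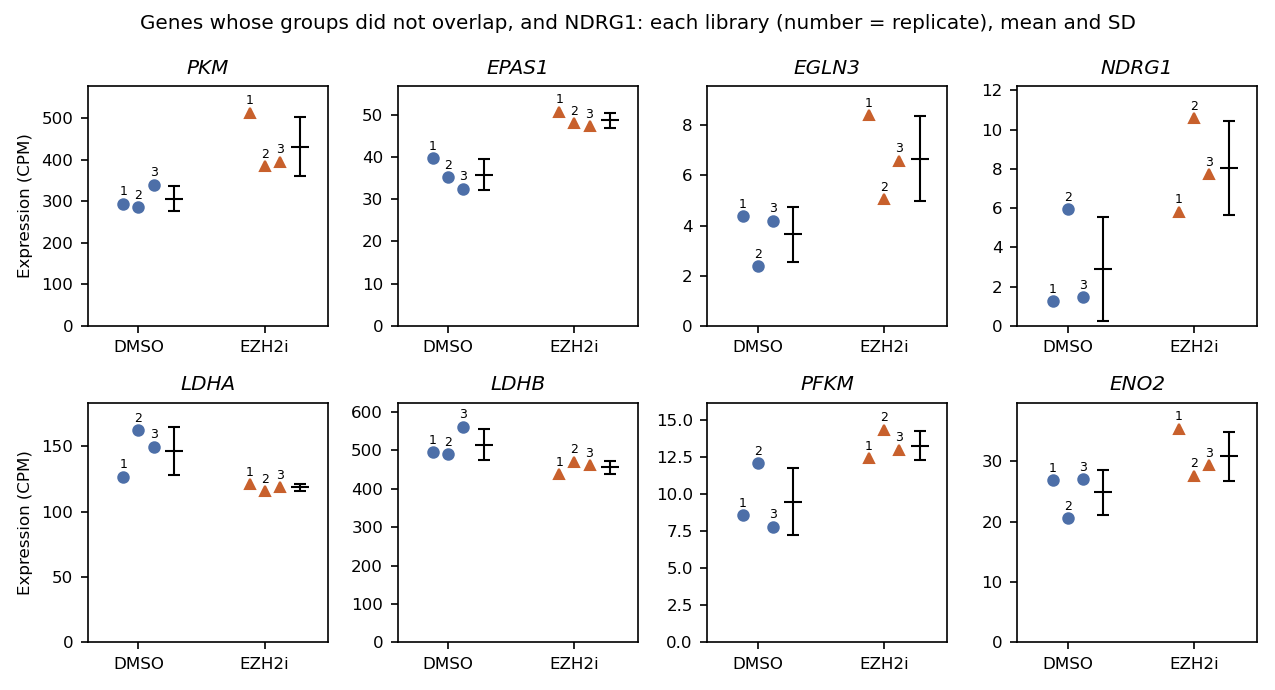
Level in CPM (y axis, from 0) of the 7 tested genes whose groups did not overlap and of NDRG1, in each library, with the replicate number beside each point and the mean and SD as bars. PKM, EPAS1, EGLN3, PFKM and ENO2 lie higher in EZH2i, LDHA and LDHB lie lower, and DMSO replicate 2 of NDRG1 sits at the level of EZH2i replicate 1.

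Where several of the 35 genes make the same enzyme or subunit, each one's share of their summed CPM was compared. Paralogs outside the 35 were not part of these sums. With 3 libraries against 3, the smallest two-sided p of the exact permutation test is 0.1, and none of the 14 shares compared had an adjusted p under 0.467. PFKP made up 38.3% ± 1.71 of phosphofructokinase in DMSO and 35.1% ± 0.187 in EZH2i, and the groups did not overlap (SD, n = 3 each, exact permutation p = 0.1). ENO2 made up 1.63% ± 0.126 and 2.04% ± 0.208 of enolase, likewise with no overlap (exact permutation p = 0.1). PDK3 made up 3.17% ± 2.43 and 6.66% ± 1.96 of the summed level of PDK1 and PDK3, also with no overlap (exact permutation p = 0.1). The 2 genes together had from 146 to 223 reads a library. PDK2, a kinase outside the 35 and this sum, had means of 2.10 CPM in DMSO and 3.59 CPM in EZH2i. Its groups did not overlap (edgeR adjusted p = 0.205). The PDK3 difference was 3.49 points and ran from 2.13 points (without DMSO replicate 3, which had 1 PDK3 read) to 4.46 points (without DMSO replicate 2). EPAS1 was 68.0% ± 3.58 and 69.4% ± 4.04 of the summed HIF alpha subunits, and LDHB was 77.9% ± 2.44 and 79.4% ± 0.964 of lactate dehydrogenase. The difference in the EPAS1 share, EZH2i minus DMSO, was 1.39 percentage points and ran from -0.389 points (without DMSO replicate 3) to 3.71 points (without EZH2i replicate 1). The LDHB difference was 1.499 points and ran from 0.0996 points (without DMSO replicate 2) to 2.35 points (without DMSO replicate 1).

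Genes of the neighbouring pathways were tested in the same fit. None of the 8 tested paralogs of glycolysis outside the 35, the 11 genes of the pentose phosphate pathway, the 12 tested genes of glycogen metabolism or the 11 tested HIF regulators passed the edgeR test. None of the 23 genes of pyruvate dehydrogenase and the TCA cycle passed either, and 16 of them had a log2 fold change below 0, with a median of -0.07. Their summed level was 2155 ± 56.2 CPM in DMSO and 2001 ± 31.7 CPM in EZH2i (SD, n = 3 each). An unadjusted p under 0.05 was found for 6 of these 23 genes, against 19.1% of all tested genes, and 3 of the 6 had a higher and 3 a lower level in EZH2i. The 20 further HIF targets tested had a median of -0.03, and 1 of them rose, against 3.34% of all tested genes called higher. It was LOXL2, which makes an enzyme that cross-links collagen, with 1.408, 1.306 and 1.475 CPM in DMSO and 4.876, 6.179 and 5.013 CPM in EZH2i. Its groups lay far apart, with a log2 fold change of 1.93 ± 0.31 (SE) and an edgeR adjusted p of 0.00188 by Benjamini-Hochberg.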

How the data were processed

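Three-prime mRNA libraries (QuantSeq FWD) of 6 cultures were used, 3 per group, grouped by the labels. The authors deposited raw counts per Ensembl gene, made with HTSeq 0.11.2 on GRCh38. The submitters' processing notes also name STAR 2.6.0c. The strand setting is not given in the sources used here. The 5 rows that name no gene were left out, and between 63.6% and 67.9% of each library's listed reads lay on genes. EZH2i replicate 3 had the lowest share. Of its listed reads, 12.7% lay on no annotated feature, against 7.43% to 8.51% in the other libraries. Symbols came from GENCODE 44, which matched 60401 of 60671 IDs.

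All genes were fitted with edgeR 4.0.16 in R 4.3.3 (TMM, filterByExpr with a minimum count of 10, quasi-likelihood test, two-sided) and adjusted by Benjamini-Hochberg over 12364 genes at a threshold of 0.05. The SE is the log2 fold change divided by the square root of F. The common dispersion was 0.0129. On simulated counts with this design, edgeR recovered 161 of 199 genes changed 2-fold, or 80.9%, with 6 false calls. The simulated dispersion depended on a gene's level alone, and no other fold change was simulated. The share recovered for smaller changes, such as those of PKM and EPAS1, was not tested. DESeq2 1.42.0 was an alternative, run on all listed genes. It was first run on genes with a read alone, and this was changed after its counts were seen.

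The genes, lists and tests were chosen with earlier results of these data known. Every one of the 35 genes is named. For the other lists, genes that passed the test are named by rule. EPCAM and MS4A1, 2 markers of other cell types, were named after their values were seen. A further deposited table holds the authors' DESeq2 comparison (mean counts, fold changes, statistics and p-values), which was not used here.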

Additional observations from a re-analysis of the deposited data

How the results depend on the processing

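Of the 29 tested genes, 17 kept the sign of their fold change under every alternative run for them and 12 did not. NDRG1, one of the 17, had a library with 8 counts and so no value with at least 10 counts in every library. For the genes and counts that changed with a setting below, the cause was not tested. With no filter on low counts, 928 genes passed over the whole table, 349 of them lower, and 2 genes of the other pathway lists passed. With at least 10 counts in every library, 0 of those passed, since LOXL2, with 9 counts in DMSO replicate 1, was then not tested. DESeq2 called 435 genes and 1 of the 35, PKM. Leaving out 1 library at a time gave from 209 to 536 genes, from 180 to 412 higher and from 20 to 124 lower, and from 0 to 2 of the 35 higher. Leaving out DMSO replicate 1 gave 0. Leaving out EZH2i replicate 2, EZH2i replicate 3, or either of the other DMSO libraries gave 1. The glycolytic median ran from -0.0107 to 0.1047.

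Signs turned for small values. With DESeq2 the log2 fold change of HK1 was -0.0056 and that of SLC16A1 -0.0117. With RLE size factors SLC16A1 was at -0.0020. With no filter HK1 was at -0.0111 and SLC16A1 at -0.0181. With no TMM factor ENO1 was at 0.0160 and P4HA1 at 0.0099. Leaving out 1 library gave HK1 from -0.1082 to 0.0922, ENO1 from -0.0766 to 0.0333, SLC16A1 from -0.0337 to 0.0339, P4HA1 from -0.1312 to 0.1394 and SLC2A3 from -0.1843 to 0.0386. It gave PFKP from -0.0997 to 0.1924, ALDOC from -0.1338 to 0.2605, TPI1 from -0.0107 to 0.211 and PGK1 from -0.0098 to 0.0899. It gave PDK1 from -0.1471 to 0.0819, PFKFB3 from -0.1604 to 0.0716 and PFKFB4 from -0.2185 to 0.0307.

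EPAS1 also missed the threshold with no filter (edgeR adjusted p = 0.0561) and EGLN3 passed it there (0.0449). NDRG1 passed with no TMM factor (0.0384), with no filter (2.53e-05) and without EZH2i replicate 1 (0.0262). Same-numbered libraries did not deviate together (correlations of -0.067, -0.020 and -0.028), and the main fit did not pair them. These correlations cannot tell whether same-numbered cultures were handled as matched sets. With the replicate number as a block, 599 genes passed over the whole table in place of 527. With the replicate number as a block, the edgeR adjusted p was 0.0516 for EPAS1 and 0.00133 for NDRG1.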
